A study of Mus musculus with 4 samples.

Results

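The Ms4a family in tumor-associated macrophages (TAMs) was described through 8 of its genes: Ms4a4a, Ms4a4b, Ms4a4c, Ms4a6b, Ms4a6c, Ms4a6d, Ms4a7 and Ms4a8a. They are among the genes of the Ms4a cluster on chromosome 19 that are known from myeloid cells, and they were selected by name from the 54532 genes of the count table. All 8 had a count in every library and all 8 passed the filter on low counts. The annotation held 19 Ms4a genes in total, of which 11 were not members. On GRCm38 the members span chr19:11067471-11604849, with Ms4a8a, Ms4a7 and Ms4a6d on the minus strand and Ms4a4a, Ms4a4c, Ms4a4b, Ms4a6c and Ms4a6b, in that order, on the plus strand. The TAMs came from tumors of NB9464, a murine neuroblastoma line with amplified MYCN, which were taken on day 40 after implantation from mice that had no treatment. The series title also names an adoptive transfer and the labels an RNA extraction from bone marrow-derived macrophages (BMDMs), which the sources used here do not reconcile. Both genotypes were of C57BL/6 background and came from crosses of floxed Syk mice with mice whose Cre recombinase is driven by the lysozyme M gene (Lyz2), which acts in macrophages, monocytes and granulocytes. The alleles of the SYK WT animals are not given further, and the methods give an age of 4 to 6 weeks for the mice used. The comparison set 2 libraries labelled SYK WT (M7 and M8) against 2 libraries labelled SYK KO (M9 and M10). The labels give a selection of TAMs with CD11b and F4/80 magnetic beads, and do not state whether libraries came from separate animals or from pools, so p-values measure the spread between these libraries, which may be technical.

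Ms4a genes encode small proteins that cross the cell membrane several times. The best known are Ms4a1 (CD20) of B cells and Ms4a2, the beta chain of the high-affinity IgE receptor of mast cells. In macrophages, Ms4a4a is a surface protein that associates with the fungal receptor Dectin-1 (Clec7a), which signals through the kinase Syk, Ms4a6d associates with the complement receptor Vsig4, and Ms4a8a is known from alternatively activated and tumor macrophages. Ms4a7 marks macrophages and microglia, Ms4a4c and Ms4a6c are known from monocytes, and Ms4a4b and Ms4a6b are also known from T cells.

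The targeted gene was examined first. Syk had 27.9 and 23.2 CPM (counts relative to the TMM-normalized library total) in the libraries labelled SYK WT and 196 and 160 CPM in those labelled SYK KO, and was 6.98-fold higher in the latter (log2 fold change 2.80, SE 0.194, adjusted p = 0.000674, quasi-likelihood test of edgeR, adjusted by Benjamini-Hochberg). The table has 1 count for the whole gene, floxed part included, and the direction went against the label, so every direction below holds for the libraries as labelled. With 10 macrophage markers as the scale, described further on, Syk gave a value of -0.019 on the log2 scale (adjusted p = 0.973). Total counts ranged from 20755886 to 23518045, and a detection floor of 3 counts corresponded to between 0.109 and 0.163 CPM, counting error only. Mitochondrial genes took 2.20% and 2.34% of the counts in M7 and M8 against 6.00% in M9 and 15.9% in M10. Macrophage markers were present in all 4 libraries, whereas the summed level of 8 fibroblast genes was 12549 and 14444 CPM in the libraries labelled SYK WT against 4060 and 4959 CPM in those labelled SYK KO. The catecholamine synthesis genes Th and Dbh, which mark neuroblastoma cells, had 0 counts in every library, whereas Hand2, which sympathetic and neuroblastoma cells express, was present at 262, 301, 178 and 286 CPM and Mycn at 22.2, 21.4, 29.3 and 43.5 CPM in M7, M8, M9 and M10.

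The family was higher as a whole in the libraries labelled SYK KO. The members together had 176 CPM in M7 and 124 CPM in M8, against 1280 CPM in M9 and 690 CPM in M10. Of the 8 members, 7 were higher with an adjusted p under 0.05, beside 22.7% of the 16451 genes tested, and 0 were lower, beside 16.7% of the genes tested. The median log2 fold change of the members was 2.74 (range 1.48 to 3.83) and that of all genes tested was 0.02. All 8 members had both libraries labelled SYK KO above both labelled SYK WT, beside 38.0% of the genes tested. With 2 libraries a group, the smallest two-sided p that an exact permutation of the labels allows for any gene is 0.333, and the adjusted p-values borrow their error from all genes. In bulk RNA, fewer cells of a type and less RNA per cell cannot be told apart.

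**Figure D1:**
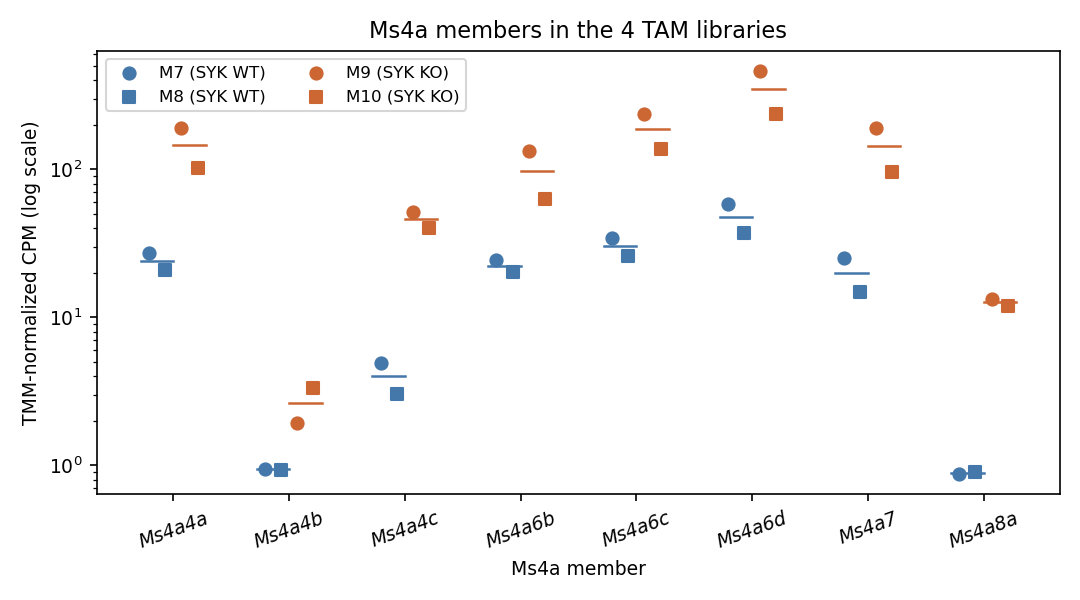
TMM-normalized CPM of each Ms4a member (log axis) in the libraries labelled SYK WT (M7 and M8, blue) and SYK KO (M9 and M10, orange); points are libraries and horizontal lines are group means. Both orange points lie above both blue points for each member, from Ms4a4b at 0.936 to 3.32 CPM up to Ms4a6d at 37.1 to 463 CPM.

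Ms4a6d, the partner of Vsig4, had the highest counts of the family. It was measured at 58.4 and 37.1 CPM in M7 and M8 and at 463 and 237 CPM in M9 and M10. The groups did not overlap, and the higher library of each group exceeded the other by 1.57-fold in SYK WT and 1.95-fold in SYK KO. Ms4a6d rose 7.33-fold (log2 fold change 2.87, SE 0.384, adjusted p = 0.00300).

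Ms4a4a, the partner of Dectin-1, had 27.2 and 21.0 CPM in the libraries labelled SYK WT and 190 and 102 CPM in those labelled SYK KO. The lowest library labelled SYK KO, M10, still lay well above the highest labelled SYK WT. Ms4a4a rose 6.06-fold (log2 fold change 2.60, SE 0.327, adjusted p = 0.00247). Ms4a7, a marker of macrophages, had 25.0 and 14.8 CPM against 192 and 96.1 CPM. It rose 7.23-fold (log2 fold change 2.85, SE 0.401, adjusted p = 0.00356), and its groups were likewise apart, with M9 the highest library and M8 the lowest.

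The monocyte-associated members differed in how closely the libraries labelled SYK KO matched. Ms4a6c had 34.4 and 26.0 CPM in SYK WT against 236 and 137 CPM in SYK KO, and rose 6.17-fold (log2 fold change 2.62, SE 0.303, adjusted p = 0.00200). Ms4a4c had 4.92 and 3.05 CPM against 51.5 and 40.3 CPM, and rose 11.5-fold (log2 fold change 3.52, SE 0.290, adjusted p = 0.000884). M9 exceeded M10 by 1.72-fold for Ms4a6c and by 1.28-fold for Ms4a4c, and neither gene's groups overlapped.

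Ms4a8a, the member known from alternatively activated macrophages, had the highest fold change of the family. It had 0.875 and 0.895 CPM in M7 and M8, from 24 and 22 counts, and 13.3 and 12.0 CPM in M9 and M10, from 273 and 220 counts. The libraries within each group lay close together, and the groups were far apart. Ms4a8a rose 14.2-fold (log2 fold change 3.83, SE 0.332, adjusted p = 0.000951).

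The members also known from T cells had the lowest fold changes. Ms4a6b had 24.5 and 20.1 CPM against 133 and 62.8 CPM and rose 4.39-fold (log2 fold change 2.13, SE 0.357, adjusted p = 0.00612). Its libraries labelled SYK KO were the least alike of the called members, with 2.12 times more CPM in M9 than in M10. Ms4a4b was scarce, with 26 and 23 counts against 40 and 61 counts, or 0.948 and 0.936 against 1.94 and 3.32 CPM. Ms4a4b was the only member with more CPM in M10 than in M9, and its log2 fold change of 1.48 (SE 0.547) missed the threshold with an adjusted p of 0.0741. The T cell markers Cd3d, Cd3e, Cd3g, Trac, Cd2 and Lck had a summed level of 6.12 and 4.68 CPM in SYK WT and of 11.5 and 14.7 CPM in SYK KO, also with M10 above M9, and 4 of the 6 were higher. Lck made up much of this sum, with 4.89, 3.82, 4.08 and 5.72 CPM in M7, M8, M9 and M10. Its log2 fold change was 0.17 (adjusted p = 0.750), whereas the median of these markers was 3.02. Cd3d had less CPM in M10 (0.599) than in M9 (0.680). Their part in the Ms4a4b and Ms4a6b values was not tested.

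Library M9 weighed most on the size of the change for most members. The exceptions were Ms4a4c, which moved most without M7 (from 3.52 to 3.91), and Ms4a4b, which moved most without M10 (from 1.48 to 1.05). Without M9, the log2 fold change was 1.99 for Ms4a4a, 1.40 for Ms4a6b, 2.22 for Ms4a6d and 2.18 for Ms4a7, a difference of over 1.5-fold on the linear scale for each of them, and 3.24 for Ms4a4c and 3.66 for Ms4a8a. All 8 members were then called higher, beside 24.8% of the genes tested, Ms4a4b with a log2 fold change of 1.73 and an adjusted p of 0.00648. With M7, M8 or M10 left out, 7 members were called, beside 12.1%, 8.58% and 28.9% of the genes tested.

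Levels of different genes were compared per length, as counts per base of summed exons, scaled to a common total. TMM factors were not applied to them, so these levels compare genes and are not set against the CPM above or between groups. In the libraries labelled SYK WT the order was Ms4a4a (113 ± 23.5 length-scaled CPM, SD, n = 2), Ms4a6d (108 ± 36.9), Ms4a6c (57.9 ± 12.9), Ms4a6b (19.5 ± 3.20), Ms4a7 (17.6 ± 6.85), Ms4a4c (8.97 ± 3.20), Ms4a8a (1.93 ± 0.0207) and Ms4a4b (0.421 ± 0.0151). On this length Ms4a4a and Ms4a6d did not differ beyond their spread, nor did Ms4a6b and Ms4a7. In the libraries labelled SYK KO, Ms4a6d (406 ± 255) and Ms4a4a (351 ± 212) again led, followed by Ms4a6c (181 ± 101), Ms4a7 (65.2 ± 41.6), Ms4a4c (51.4 ± 18.8), Ms4a6b (44.2 ± 29.7), Ms4a8a (13.6 ± 3.67) and Ms4a4b (0.556 ± 0.0990). The library values of Ms4a7, Ms4a4c and Ms4a6b overlapped there, and those of Ms4a6c and Ms4a7, of Ms4a6b and Ms4a8a and of Ms4a8a and Ms4a4b did not. The SD holds the difference between M9 and M10 that most members share, so it does not compare genes within a library. On this length, Ms4a6d lay above Ms4a4a in both libraries labelled SYK KO (587 against 501 in M9, 226 against 201 in M10). Ms4a7 likewise lay above Ms4a6b (94.6 against 65.2 in M9, 35.7 against 23.2 in M10). In the libraries labelled SYK WT, the order within both of these pairs changed between M7 and M8.

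The share of each member in the family's length-scaled counts does not depend on how libraries are scaled to each other. Ms4a6d and Ms4a4a together with Ms4a6c made up most of the family in every library. Ms4a4c took 2.89% and 2.51% in M7 and M8 against 4.09% and 5.90% in M9 and M10, and Ms4a8a took 0.501% and 0.719% against 1.03% and 1.71%. Ms4a6b had the opposite order, with 5.60% and 6.48% in SYK WT against 4.13% and 3.58% in SYK KO. The shares of these 3 genes did not overlap between groups, and neither did those of Ms4a4a (33.4% and 36.2% against 31.7% and 31.1%), Ms4a4b (0.111% and 0.154% against 0.0308% and 0.0969%), Ms4a6c (17.2% and 18.3% against 16.0% and 17.1%) and Ms4a6d (34.6% and 30.9% against 37.1% and 35.0%). Ms4a7 shares overlapped, with 5.77% and 4.79% against 5.98% and 5.53%. Groups did not overlap for 94.3% of all genes tested when counts were divided by the summed member counts, so the absence of overlap is common on this scale. That rate is not like for like with the shares, since these counts were not divided by length. The summed member counts were 4831 and 3044 in M7 and M8 against 26367 and 12662 in M9 and M10. Most genes therefore fall on this scale. When libraries were scaled to the summed counts of the 8 members and fitted again, which centres the family near 0 by construction, 0 members were called higher, beside 0.754% of the genes tested, and 0 lower, beside 82.8%. In that fit Ms4a8a had a log2 fold change of 1.19, Ms4a4c of 0.91, Ms4a6b of -0.63 and Ms4a4b of -1.03. The length used matters for the order of genes: with the median length of the coding transcripts, Ms4a6d led with 36.0% ± 2.07 of the family in SYK WT (SD, n = 2) against 23.2% ± 1.86 for Ms4a4a, and Ms4a7 held 14.1% ± 1.54 against 13.2% ± 0.840 for Ms4a6c and 8.26% ± 1.03 for Ms4a6b.

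**Figure D2:**
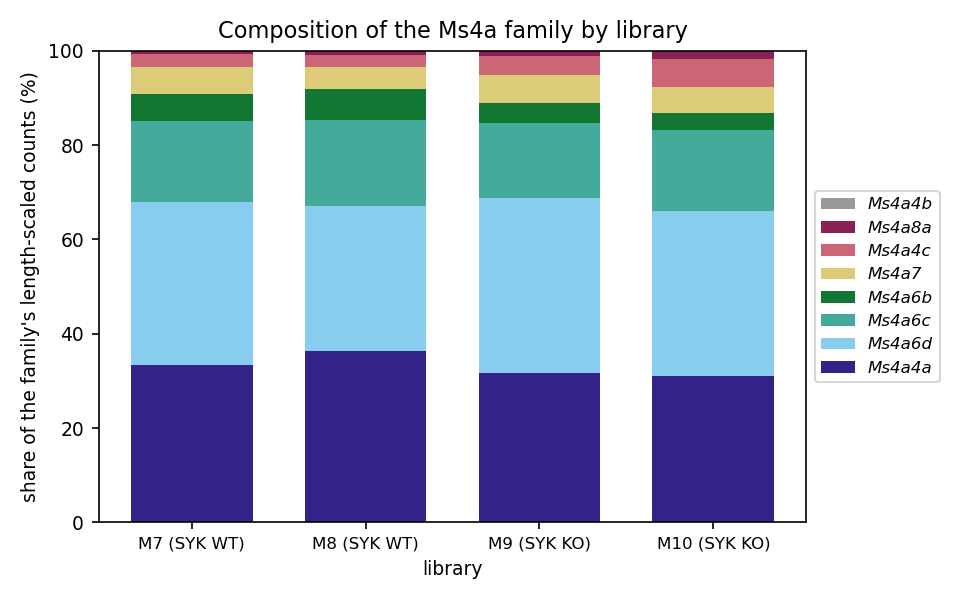
Share (%) of each Ms4a member in the family's length-scaled counts, stacked from 0 to 100, in the 4 libraries. Ms4a4a and Ms4a6d are the largest blocks in each bar, and the Ms4a4c block is wider in M9 and M10 (4.09% and 5.90%) than in M7 and M8 (2.89% and 2.51%).

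Markers of macrophages moved with the family. Of the 10 macrophage markers (Adgre1, Itgam, Cd68, Csf1r, Fcgr1, Mertk, Cd14, C1qa, C1qb and C1qc), 10 were higher in the libraries labelled SYK KO, at a median log2 fold change of 3.01, in a range from 0.57 for Mertk to 3.57. Their summed level was 1122 and 776 CPM in SYK WT against 9212 and 5799 CPM in SYK KO. For every 100 counts of these markers, the members had 15.7 and 16.0 counts in M7 and M8 and 13.9 and 11.9 counts in M9 and M10. The ratio was thus slightly lower in both libraries labelled SYK KO, whereas the family's CPM was several times higher there. Genes of the other cell types that a CD11b and F4/80 selection can hold also moved. Of the monocyte markers, 5 of 5 were higher, with a median log2 fold change of 3.77. Of the dendritic cell markers, 4 of 6 were higher (median 4.04), up to 4.84 for Itgax. Clec9a (2.26, adjusted p = 0.0582) and Zbtb46 (-0.19, adjusted p = 0.607) were not called. The 6 neutrophil markers tested were higher (median 3.27), whereas Ly6g had 2, 0, 5 and 1 counts in M7, M8, M9 and M10 and did not pass the filter. Also higher were 6 of 6 pan-leukocyte genes (median 3.69), and 5 of 8 fibroblast genes were lower with a median of -1.44. The part of this difference in leukocyte and fibroblast RNA in the Ms4a values was not tested beyond the scaled fits that follow.

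**Figure D3:**
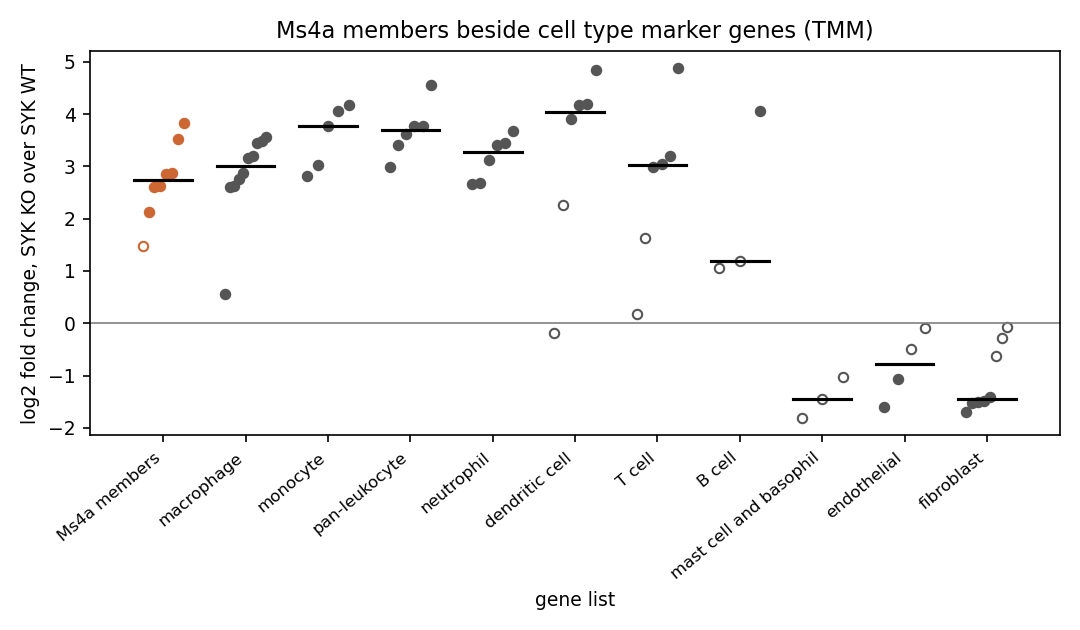
Log2 fold change of the libraries labelled SYK KO over those labelled SYK WT (TMM scaling) for the Ms4a members (orange) and for marker genes of other lists (grey), 1 point per gene tested; filled points have an adjusted p under 0.05 and black lines are list medians. The members' median of 2.74 lies beside the macrophage median of 3.01, and fibroblast genes lie below 0 with a median of -1.44.

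With the 10 macrophage markers as the scale, the difference of the family was no longer seen. Under that scaling 0 members were called higher, beside 0.760% of the genes tested, and 0 were called lower, beside 87.3%. Ms4a6d and Ms4a7 had log2 fold changes of 0.02 and 0.00, Ms4a6c and Ms4a4a of -0.24 and -0.28, and Ms4a6b and Ms4a4b of -0.77 and -1.25. Ms4a4c (0.73, SE 0.582) and Ms4a8a (1.01, SE 0.810) were the members with positive values above 0.1, and their adjusted p-values were 0.224 and 0.231. This scaling moved the median of all genes tested to -2.79. Scaling to the 6 pan-leukocyte genes, which moved that median to -3.65, gave 0 members called higher, beside 0.304% of the genes tested, and 6 called lower, beside 93.0%. The 6 were Ms4a4a (-1.11), Ms4a4b (-2.13), Ms4a6b (-1.60), Ms4a6c (-1.08), Ms4a6d (-0.83) and Ms4a7 (-0.85), and the values of Ms4a4c and Ms4a8a were -0.13 and 0.16. A lower call is shared with most genes under these scalings.

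**Figure D4:**
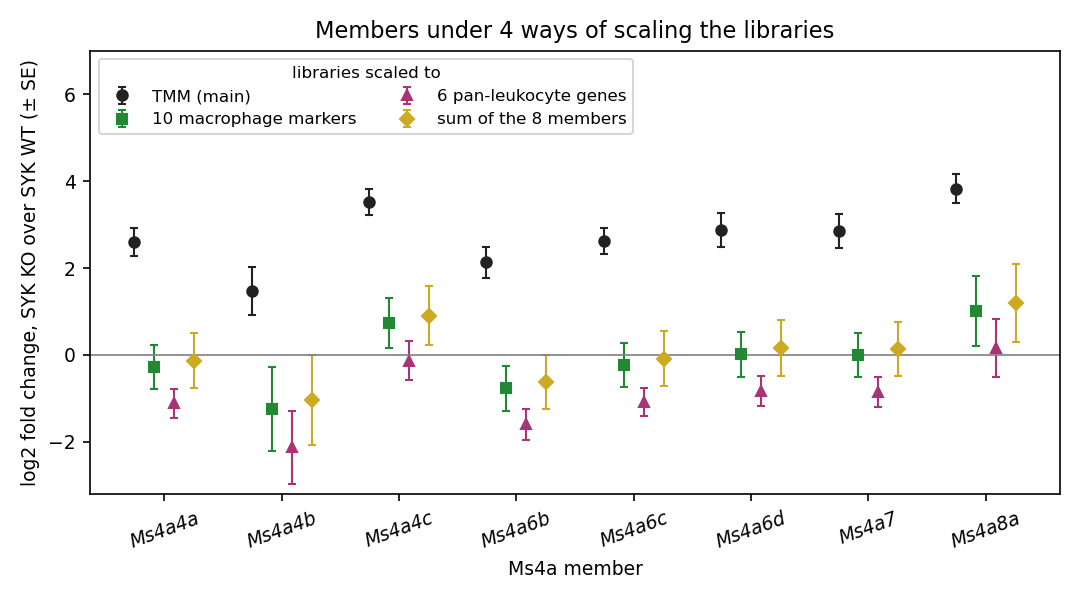
Log2 fold change (± SE) of each Ms4a member under TMM normalization (black), scaling to 10 macrophage markers (green), to 6 pan-leukocyte genes (purple) and to the sum of the 8 members (yellow). The black points lie between 1.48 and 3.83, and the other points lie around or below 0 apart from the green and yellow points of Ms4a4c and Ms4a8a.

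Sequence shared within the cluster was measured, since reads of shared stretches can be divided between genes. Ms4a4b and Ms4a4c shared sequence with each other, and 17.1% of the 31-base words of Ms4a4c transcripts also occurred in other genes, mainly Ms4a4b. The corresponding share was 7.90% for Ms4a6b and 8.11% for Ms4a6d, and no word of 150 bases was shared by any member other than Ms4a6c. For Ms4a6c, 44.2% of the 150-base words also occurred in BE692007, a transcript on the opposite strand that overlaps it, and the sources used here do not state whether strand was used in counting. Reads of the pair cannot be told apart without strand. BE692007 had 146 and 85 counts in SYK WT and 629 and 342 in SYK KO, and summing it with Ms4a6c gave a log2 fold change of 2.61 (SE 0.305, adjusted p = 0.00205). Summed counts of Ms4a4a to Ms4a4d gave 2.71 (SE 0.295, adjusted p = 0.00168) and those of Ms4a6b to Ms4a6d gave 2.66 (SE 0.358, adjusted p = 0.00305). Ms4a4a, with 0 shared 31-base words, held 745 of the 927 counts of the Ms4a4 sum in M7 and 3921 of 5021 in M9. The Ms4a4 sum therefore mainly follows Ms4a4a. Ms4a4b and Ms4a4c, which share sequence, were not summed alone.

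The pairs were also alike before their transcription starts, and the stretches are shown to let these related members be compared. Their log2 fold changes were 1.48 (SE 0.547) and 3.52 (SE 0.290) in the Ms4a4 pair and 2.13 (SE 0.357) and 2.62 (SE 0.303) in the Ms4a6 pair, and the difference within a pair was not tested. RefSeq starts (GRCm38.p6) were available for 7 of the 8 members, and not for Ms4a6d. Among 27 pairs of windows of 250 bases before the start, the best local alignment was longest for Ms4a4b with Ms4a4c (247 columns, 73.3% identical) and next for Ms4a6b with Ms4a6c (181 columns, 83.4% identical), and reached at most 99 columns in the other 25 pairs. The stretches below are on the plus strand of chromosome 19, 5′ to 3′, stop before the first annotated exon base, and have in capitals the bases that differ from the partner or lie opposite a gap. They lie at chr19:11443318-11443552 for Ms4a4b, chr19:11407425-11407659 for Ms4a4c, chr19:11518311-11518452 for Ms4a6b and chr19:11469193-11469330 for Ms4a6c. The Ms4a4c and Ms4a6b stretches lie within the annotated span of their own gene, before a start downstream of its first exon.
Ms4a4b: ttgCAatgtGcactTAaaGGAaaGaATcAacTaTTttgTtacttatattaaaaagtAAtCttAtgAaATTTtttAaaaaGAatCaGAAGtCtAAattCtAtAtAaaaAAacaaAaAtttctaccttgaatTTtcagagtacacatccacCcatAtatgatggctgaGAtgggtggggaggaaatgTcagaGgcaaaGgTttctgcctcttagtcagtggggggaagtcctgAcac
Ms4a4c: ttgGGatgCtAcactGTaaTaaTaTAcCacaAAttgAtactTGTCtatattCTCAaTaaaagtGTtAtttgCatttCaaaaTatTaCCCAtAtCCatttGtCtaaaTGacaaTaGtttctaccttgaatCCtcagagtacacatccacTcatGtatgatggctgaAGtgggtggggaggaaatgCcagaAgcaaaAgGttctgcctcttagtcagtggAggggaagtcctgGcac
Ms4a6b: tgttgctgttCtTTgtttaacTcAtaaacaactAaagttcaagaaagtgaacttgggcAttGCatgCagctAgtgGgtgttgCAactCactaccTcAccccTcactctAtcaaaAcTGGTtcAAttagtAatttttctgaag
Ms4a6c: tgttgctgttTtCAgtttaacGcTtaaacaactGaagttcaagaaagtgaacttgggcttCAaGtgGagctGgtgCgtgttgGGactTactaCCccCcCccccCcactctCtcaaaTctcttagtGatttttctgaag
The letters AGGAAG, a part of the purine-rich motif to which PU.1, a myeloid transcription factor, is known to bind, were sought on both strands in the windows of 250 bases before to 50 bases after each start. They occurred in 3 of the 8 member windows, beside 35.4% of 32851 windows of all genes. The matches lay 86, 42 and 17 bases before the start of Ms4a6b, 17 bases before that of Ms4a6c and 83 bases before that of Ms4a8a. The longer form GAGGAAGT, which contains these letters, occurred in 0 of the 8 windows, beside 3.20% of all windows. Other forms of the motif were not sought, and the Ms4a4b and Ms4a4c stretches above both hold the letters gaggaa. These matches are letters only.

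Reported partners of the family were measured beside it. Clec7a, which encodes Dectin-1, had 14.4 and 10.6 CPM in SYK WT and 201 and 131 CPM in SYK KO, and rose 13.3-fold (log2 fold change 3.73, SE 0.285, adjusted p = 0.000755). Trem2, the lipid receptor whose soluble form is linked to the human MS4A locus, rose with a log2 fold change of 2.89 (adjusted p = 0.00201), and its adaptor Tyrobp with 3.21 (adjusted p = 0.00136). Vsig4, the partner of Ms4a6d, had 1.90 and 1.71 CPM against 4.13 and 2.34 CPM. Its groups were apart but close, and its log2 fold change of 0.84 (SE 0.493) had an adjusted p of 0.215. Under scaling to the macrophage markers Vsig4 was called lower (-2.04, adjusted p = 0.0231), and Clec7a was not called (0.89, adjusted p = 0.0915). That scaling called 87.3% of the genes tested lower and moved their median to -2.79, so the Vsig4 call is shared with most genes.

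Of the 11 other Ms4a genes, 3 passed the filter on low counts. Ms4a14, next to Ms4a7, had 128 and 83 counts in SYK WT and 428 and 221 in SYK KO, and rose with a log2 fold change of 2.03 (SE 0.362, adjusted p = 0.00751). Ms4a1, the B cell gene, had 13, 6, 9 and 22 counts in M7, M8, M9 and M10, its groups overlapped, and its adjusted p was 0.302. Ms4a4d, the neighbour of Ms4a6b, went the other way, with 21 and 16 counts against 0 counts in M9 and 1 count in M10. Its level was 27.7 times higher in SYK WT, with a 95% exact interval from 4.67 to 1120 that covers counting error only, and its adjusted p was 0.0243. It was not called without either library labelled SYK WT or by DESeq2's Wald test. Ms4a15 and Ms4a2 had at most 7 counts in any library, and 6 further genes, among them the progenitor gene Ms4a3, had 0 counts in all 4 libraries. The related genes Tmem176a and Tmem176b, of the same superfamily but on another chromosome, had smaller differences than the called members, with log2 fold changes of 0.48 (adjusted p = 0.0481) and 1.07 (adjusted p = 0.00553). The Tmem176a call was lost in several alternatives, with adjusted p-values of 0.0663 with DESeq2 size factors and 0.241 and 0.440 without M7 and M8, and its sign turned when library size alone was used. Tmem176b was not called with library size alone (adjusted p = 0.0554) or without M8 (adjusted p = 0.0698). Both genes were called lower under scaling to the macrophage markers, as were 87.3% of the genes tested.

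Genes beside the members were read from the same fit. Within 250 kb of the cluster, 13 genes that are no Ms4a gene were tested, of which 8 were higher (22.7% of all genes tested were), 1 was lower (16.7% were) and 4 were not called, with a median log2 fold change of 1.57. The 8 include BE692007, whose reads overlap Ms4a6c. Slc15a3, which encodes a lysosomal peptide transporter, rose with a log2 fold change of 3.78 (adjusted p = 0.000769), and AW112010, a noncoding RNA beside Ms4a8a, with 4.10 (adjusted p = 0.000652). Prpf19, a splicing factor gene on the same side of the cluster, had a log2 fold change of 0.02 (adjusted p = 0.952), and Tmem132a fell by 0.60 on the log2 scale (adjusted p = 0.0415). Between Ms4a6c and Ms4a6b, the gene Gm8369 had 2, 2, 44 and 0 counts in M7, M8, M9 and M10 and did not pass the filter. It was singled out after its values were seen.

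**Figure D5:**
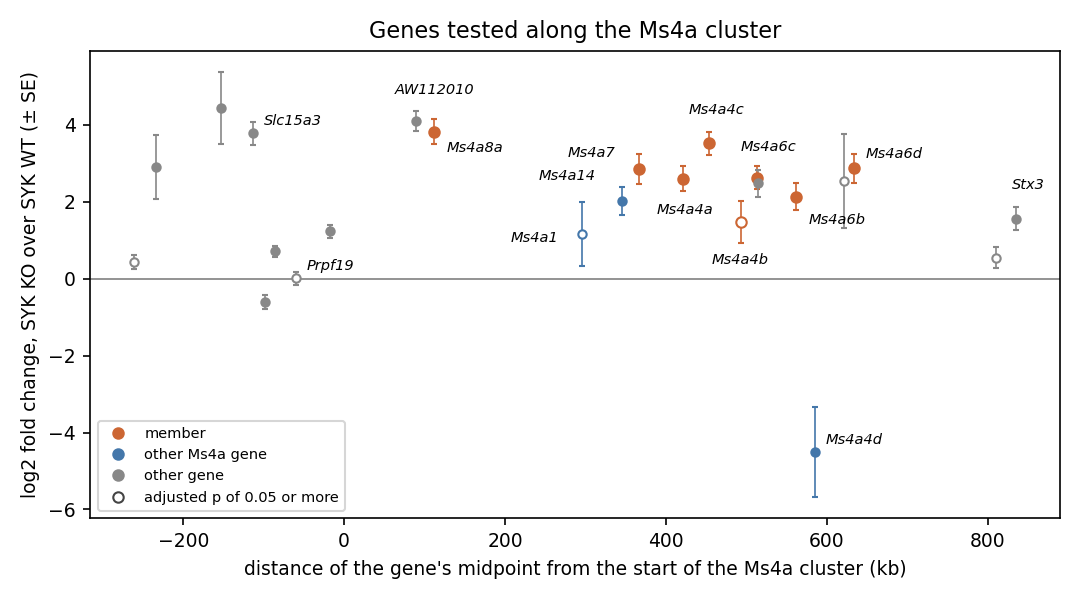
Log2 fold change (± SE) of the genes tested within 250 kb of the Ms4a cluster, by the distance in kb of each gene's midpoint from the start of the cluster; members are orange, other Ms4a genes blue and other genes grey, and open points have an adjusted p of 0.05 or more. The members lie between 1.48 and 3.83, and the fitted value of Ms4a4d rests on 1 count in the libraries labelled SYK KO.

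The genes most like the family were sought by the root mean square difference, over the 4 libraries, between a gene's centred log2 CPM and the median of the centred log2 CPM of the members. Among 10024 genes with a mean of at least 10 CPM, the closest were Dab2, an endocytic adaptor (0.0236), Plau, the urokinase gene (0.0504), Igsf6, an immunoglobulin superfamily gene (0.0576), Slc7a2, a transporter of cationic amino acids (0.0587), and C1qc, a complement subunit that is also a macrophage marker (0.0804). Among the members the same measure ran from 0.0757 for Ms4a6d through 0.0887 for Ms4a6c, 0.102 for Ms4a7 and 0.106 for Ms4a4a to 0.358 for Ms4a6b, 0.462 for Ms4a4c, 0.647 for Ms4a8a and 0.891 for Ms4a4b. The profile is the median of the same members, so members in the middle lie close to it by construction. The macrophage markers ranged from C1qc (0.0804), Cd68 (0.118) and Adgre1 (0.157) to Itgam (0.334), Cd14 (0.393), Fcgr1 (0.478) and Mertk (1.12), which lay farther than any member.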

How the data were processed

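RNA sequencing of TAMs was analysed in 2 libraries per genotype, grouped by the sample labels. Alignment to mm10 by STAR and quantification by Salmon were done by the authors, who deposited raw counts, as whole numbers for each Ensembl gene. The submitters' processing notes list STAR 2.6.1d, Salmon 1.4.0, SAMtools 1.9, Picard 2.26 and MultiQC 1.11. Salmon divides reads among similar transcripts, and how whole numbers were made is not given in the sources used here. The labels give polyA libraries with paired reads of 150 bases, state that RNA was extracted from BMDMs after isolation of TAMs, and have an adoptive transfer in the title, whereas the methods describe single reads and 3 replicates. The file was used as labelled.

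Symbols, positions and exon lengths came from GENCODE M21 (GRCm38), which matched 54495 of 54532 genes. Counts were tested in R 4.3.3 with edgeR 4.0.16 (filterByExpr, TMM, glmQLFit and glmQLFTest, not robust, Benjamini-Hochberg adjustment over 16451 genes, threshold 0.05). The SE of a log2 fold change was derived from the test, as the absolute log2 fold change divided by the square root of its F statistic. TMM factors were 1.22, 1.19, 0.876 and 0.787 for M7 to M10 in that order, and these set the zero of each log2 fold change. Counts of the libraries of a group differed by more than sampling noise (chi-square per degree of freedom 50.6 in SYK WT and 168 in SYK KO). For the members alone the values were 38.2 in SYK WT and 608 in SYK KO. The script was tested on simulated data. Local alignments (Biopython 1.88) scored 1 for a match, -1 for a mismatch and -2 for opening a gap.

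The genes named are the 8 members, the other Ms4a and Tmem176 genes that passed the filter, reported partners, neighbours within 250 kb, marker genes and the 5 genes most like the family. The members and lists were chosen with earlier results of these data known. Alternatives were other scalings, filters, tests (DESeq2 1.42.0), thresholds, summed copies and each library left out. Protein sequences were not analysed here.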

Additional observations from a re-analysis of the deposited data

How the results depend on the processing

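The 7 higher calls among the members were kept in number, or rose to 8, under DESeq2 size factors, library size only, both other filters, removal of mitochondrial and rRNA-like genes, the robust fit, DESeq2's Wald test, both other thresholds and each library left out. Of 127 alternative values of single members, 92 kept direction and side of the threshold, 21 reversed, 11 lost the call and 3 gained it. The cause was not tested. Over all genes tested, 1677 of 16451 were called higher with library size only and 3466 of 16451 with DESeq2 size factors. The number was 4174 of 26596 with all genes with a count and 3358 of 13725 with at least 10 counts in every library. Under the marker scalings given next, 87.3% (macrophage) and 93.0% (pan-leukocyte) of the genes tested were called lower. Scaling to the macrophage markers gave 0 members higher, a median log2 fold change of -0.12, 0 other Ms4a genes higher, and -0.28 for Ms4a4a, -1.25 for Ms4a4b, -0.77 for Ms4a6b, -0.24 for Ms4a6c, -1.43 for Ms4a1, -0.83 for Ms4a14, -2.32 for Tmem176a, -1.71 for Tmem176b, -2.04 for Vsig4 and -0.019 for Syk. Scaling to the pan-leukocyte genes gave 0 members higher and 6 lower, a median of -0.96, 0 other Ms4a genes higher and 3 lower, and -1.11 for Ms4a4a, -2.13 for Ms4a4b, -0.13 for Ms4a4c, -1.60 for Ms4a6b, -1.08 for Ms4a6c, -0.83 for Ms4a6d, -0.85 for Ms4a7, -2.35 for Ms4a1, -1.67 for Ms4a14, -3.18 for Tmem176a, -2.57 for Tmem176b, -0.80 for Trem2, -0.49 for Tyrobp, -2.87 for Vsig4 and -0.87 for Syk. Scaling to the sum of the members, which centres the family by construction and is no test of it, gave 0 members higher, a median of 0.031, 0 other Ms4a genes higher, and -0.13 for Ms4a4a, -1.03 for Ms4a4b, -0.63 for Ms4a6b, -0.083 for Ms4a6c, -1.20 for Ms4a1, -0.67 for Ms4a14, -2.13 for Tmem176a, -1.51 for Tmem176b and -1.89 for Vsig4. Scaling to Itgam and Adgre1, the genes of the magnetic selection, was added after seeing the data and gave 0 members higher, a median of -0.30, 0 other Ms4a genes higher, and -0.47 for Ms4a4a, -1.38 for Ms4a4b, -0.97 for Ms4a6b, -0.42 for Ms4a6c, -0.17 for Ms4a6d, -0.19 for Ms4a7, -1.53 for Ms4a1, -1.01 for Ms4a14, -2.47 for Tmem176a, -1.85 for Tmem176b, -0.13 for Trem2, -2.23 for Vsig4 and -0.18 for Syk. With library size only, Tmem176a had -0.062. Ms4a4b was called with a filter of at least 10 counts in every library (adjusted p = 0.0370). Other Ms4a genes called lower were 0 under that filter, where Ms4a4d was not tested, 0 by DESeq2's Wald test, and 0 to 1 when 1 library was left out; the members' median then ran from 2.14 to 3.14, a lone library being assumed to vary like the others. No paired analysis was possible because the labels give no replicate numbers. Below about 25 counts, as for Ms4a4b and Ms4a8a in SYK WT, counting error limits the values.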
